A study of Mus musculus with 4 samples.

Results

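Mt1, Prdx1, Gclm, Slc7a11, Sqstm1, Srxn1, Txnrd1, Gsr and Sod2 were followed as a set of 9 oxidative stress defence genes among the 16308 genes of 4 single-cell libraries. The 9 genes were picked by name with earlier results of these same cells in view, so their levels and ratios are given here as a description and no test was made of them. All 9 had a row in every count table. Each library held CD45+ leukocytes from the small-intestinal muscularis of mice that had undergone intestinal manipulation, a surgical handling of the bowel that inflames its muscle layer. WT mice were C57BL/6J and CCR2 KO mice were Ccr2-/- (B6.129S4-Ccr2tm1Ifc/J), each taken at 24 h and at 72 h. All animals were 12 weeks old and all were manipulated, with 1 library of pooled animals for each genotype and time. CCR2 is the chemokine receptor that monocytes use to leave the bone marrow, and the Ccr2 loss was present in every cell of the KO mice. Because each group was 1 library, a difference between groups has no replicate check, and genotype or time cannot be told apart from the library.

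Cells handle oxidants with several linked systems. Cystine enters through the transporter encoded by Slc7a11, is built into glutathione by an enzyme whose modifier subunit is Gclm, and oxidised glutathione is returned to its reduced form by Gsr, glutathione reductase. In parallel, peroxiredoxins such as Prdx1 reduce peroxides, Srxn1 (sulfiredoxin) restores over-oxidised peroxiredoxin, and Txnrd1 (thioredoxin reductase) keeps thioredoxin reduced. Sod2 removes superoxide in mitochondria, Sqstm1 (p62) is an autophagy receptor that also binds Keap1, and Mt1 is a metallothionein that binds zinc and copper. Many of these genes are known targets of the transcription factor Nrf2, which binds antioxidant response elements, while metallothionein genes are known for metal response elements bound by Mtf1. Macrophages and neutrophils make oxidants themselves through the NADPH oxidase and are therefore cells in which these systems are often studied.

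The promoters of the set are shown first, because the text below asks which of the 9 genes moved together. Both kinds of element were searched for in a short window before each start only. RefSeq start sites (GRCm38.p6) were listed for 8 of the 9 genes, in 10 entries, and Gsr had no entry. In the 250 bases before each start, the core of an antioxidant response element was searched as TGACNNNGC and the core of a metal response element as TGCACNC or TGCGCNC, on both strands. Gclm is shown because its window held both kinds, Prdx1 and Txnrd1 because theirs held the antioxidant core, and Mt1 because its window held a metal core. Sequences read 5′ to 3′ on the gene's strand, and capitals mark the matches.
Gclm, chr3:122245307-122245556, plus strand: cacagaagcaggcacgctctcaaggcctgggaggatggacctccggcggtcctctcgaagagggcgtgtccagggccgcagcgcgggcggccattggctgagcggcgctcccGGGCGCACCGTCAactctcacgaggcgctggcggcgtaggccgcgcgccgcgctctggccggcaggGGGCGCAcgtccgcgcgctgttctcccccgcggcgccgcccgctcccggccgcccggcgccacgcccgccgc
Prdx1, chr4:116685349-116685598, plus strand: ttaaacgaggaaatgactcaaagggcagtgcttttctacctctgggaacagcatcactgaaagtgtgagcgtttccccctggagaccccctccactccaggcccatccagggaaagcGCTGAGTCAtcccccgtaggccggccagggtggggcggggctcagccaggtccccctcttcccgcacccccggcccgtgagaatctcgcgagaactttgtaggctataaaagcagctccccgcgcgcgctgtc
Txnrd1, chr10:82858956-82859205, plus strand: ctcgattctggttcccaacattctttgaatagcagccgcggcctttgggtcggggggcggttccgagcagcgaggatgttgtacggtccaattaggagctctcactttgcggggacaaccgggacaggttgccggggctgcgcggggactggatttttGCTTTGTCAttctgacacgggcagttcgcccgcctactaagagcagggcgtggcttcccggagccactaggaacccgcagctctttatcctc
Mt1, chr8:94178839-94179088, plus strand: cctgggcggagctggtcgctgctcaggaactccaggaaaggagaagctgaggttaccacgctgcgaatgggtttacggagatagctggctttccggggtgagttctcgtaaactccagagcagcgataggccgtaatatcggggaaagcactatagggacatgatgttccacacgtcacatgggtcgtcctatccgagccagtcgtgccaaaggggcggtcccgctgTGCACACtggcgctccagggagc
In Gclm the antioxidant core TGACGGTGC, read on the opposite strand, overlapped 1 of the 2 metal cores. The antioxidant core was TGACTCAGC in Prdx1 and TGACAAAGC in Txnrd1, both on the opposite strand, and the metal core TGCACAC of Mt1 began 23 bases before the start. Srxn1 held 1 metal core, and no match was found in the windows of Slc7a11, Sod2, Sqstm1 or the other 2 Txnrd1 entries. The antioxidant search took only C after TGA, so it passed over TGAGTCAGC in the Srxn1 window, which has G there. Of 32851 mouse promoter windows of the same length, 10.2% held the antioxidant core and 21.4% the metal core. A match is a run of letters and not a bound site. Bases outside these windows were not searched, so a window without a match does not show that a gene lacks an element. Nor does the match in Mt1 show which metal elements that gene uses.

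The 4 libraries held 5811 cells (1048 to 1774 each) and between 9736725 and 21206308 unique molecular identifiers (UMIs), each UMI standing for 1 captured transcript. Cells were put into classes by markers, with 2501 monocyte/macrophage-like (Mo/Mφ-like) and 2373 neutrophil-like cells. Values below are listed for the 24 h libraries first and the 72 h libraries second, with WT before CCR2 KO at each time. In that order the libraries held 1269, 206, 893 and 133 Mo/Mφ-like cells and 312, 1319, 182 and 560 neutrophil-like cells. Neutrophil-like cells were shallow, with a median of 2092 to 3450 UMIs per cell against 14175 to 16084 in Mo/Mφ-like cells. Ccr2 itself stood at 756 and 1072 CPM (UMIs of a gene per 1000000 UMIs of the class) in WT Mo/Mφ-like cells and at 94.9 and 84.6 CPM in the CCR2 KO. At most 1 cell barcode was shared between any pair of libraries. In WT 24 h neutrophil-like cells the 12 monocyte/macrophage markers summed to 1132 CPM, against 408 to 444 CPM in the other libraries, so Mt1 and Prdx1 are given below with and without the cells concerned.

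Levels are CPM of the summed UMIs of a class in a library, and the values in brackets are exact 95% intervals (Poisson for levels, binomial for log2 ratios) that cover counting error only. UMIs came from the 3′ end of transcripts, so a gene is compared between cells and not with another gene. A gene is said to pass when it differed by at least 2-fold with at least 20 CPM on 1 side, and the share of all genes at 20 CPM or more that passed in the same direction is given as background. Where scaling by TMM, which sets the bulk of genes level between libraries, moved the balance of higher and lower genes, its background is given too, and the same members passed with it unless other counts are stated.

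**Figure D1:**
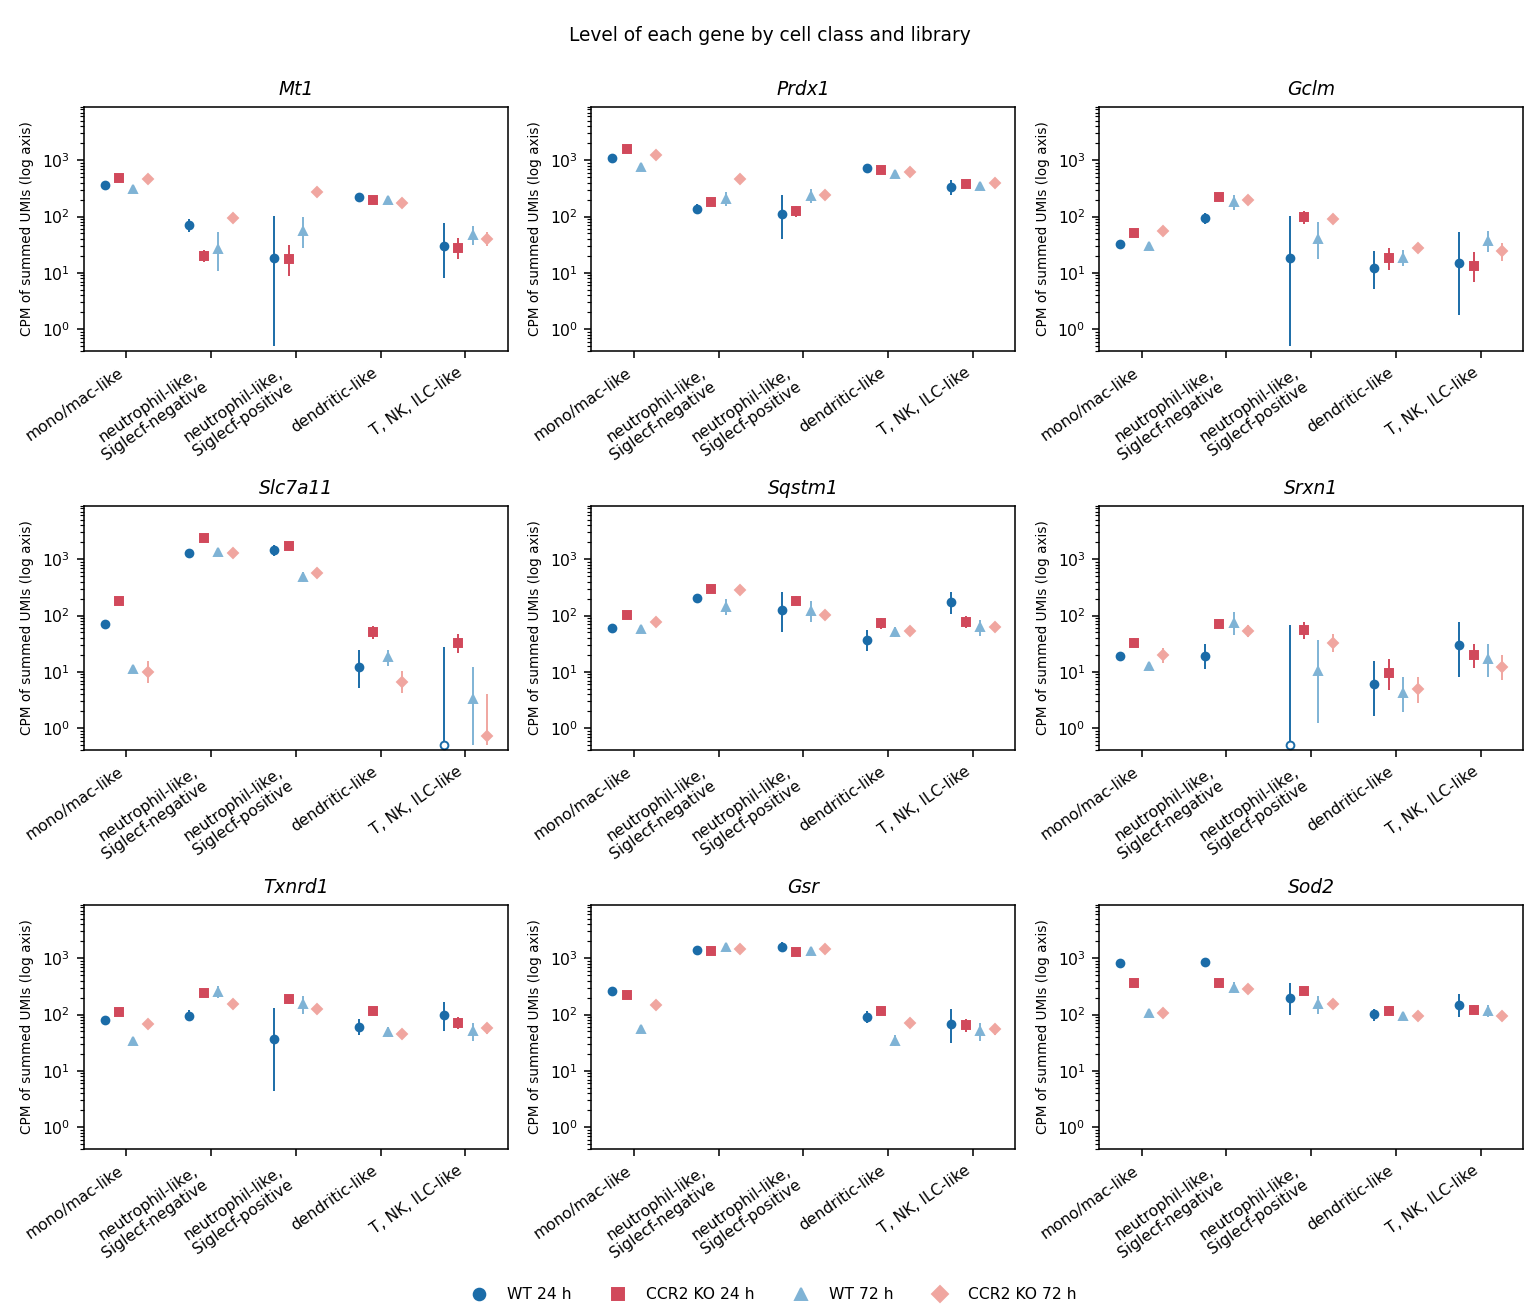
Level of the 9 genes (CPM of summed UMIs, log axis) in each leukocyte class, 1 point per library with its 95% Poisson interval, open symbols standing for 0 UMIs. Mt1 and Prdx1 sit highest in Mo/Mφ-like cells in every library, while Slc7a11 and Gsr sit highest in neutrophil-like cells.

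The set split between the 2 large myeloid classes. In all 4 libraries Mt1 and Prdx1 passed as higher in Mo/Mφ-like than in neutrophil-like cells, so 2 of the 9 genes passed in that direction, against 43.7%, 42.5%, 26.7% and 30.3% of all genes (22.2% to 34.9% with TMM scaling). In the opposite direction 4, 6, 7 and 7 of the 9 genes passed, against a background of 16.7%, 19.7%, 18.7% and 16.9% (21.4%, 32.0%, 19.3% and 25.0% with TMM scaling). Srxn1 was under the level minimum in WT 24 h. Gclm, Slc7a11, Sqstm1 and Gsr were lower in Mo/Mφ-like cells in every library. Srxn1 and Txnrd1 passed as lower in all libraries but WT 24 h, and Sod2 in both 72 h libraries. Several of these rested on the 189 cells of Leiden cluster 12, taken up with the clusters. It was singled out after its values of Gclm, Srxn1 and Txnrd1 were seen. Ratios of those genes without it partly follow from that choice and are no separate check. Without cluster 12 the log2 ratio of Srxn1 turned to 0.50 in CCR2 KO 72 h and 0.11 in WT 72 h. The cluster held 77.3% of the 22 neutrophil-like Srxn1 UMIs of WT 72 h, so 0.11 rested on few UMIs. Without the cluster, Sod2 (log2 -0.39 and -0.08) and Sqstm1 passed in neither 72 h library. Gclm and Txnrd1 then did not pass in CCR2 KO 72 h, nor Srxn1 and Txnrd1 in CCR2 KO 24 h. With thinned cells Gclm of WT 24 h did not pass (log2 -0.34).

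Slc7a11, the cystine transporter, was placed in neutrophil-like cells. In neutrophil-like cells it stood at 1316, 2288, 966 and 968 CPM, and in Mo/Mφ-like cells at 70.7, 178, 11.3 and 10.1 CPM. All 4 neutrophil-like values lay above all 4 Mo/Mφ-like values, and the ratio ran from 12.8-fold in CCR2 KO 24 h to 95.9-fold in CCR2 KO 72 h. After each cell was thinned to 1000 UMIs, 52.9%, 67.6%, 42.4% and 38.5% of neutrophil-like cells held a Slc7a11 UMI (72.1%, 81.7%, 61.5% and 54.5% unthinned). T, NK and innate lymphoid cells, taken as the background class, held 0, 29, 2 and 1 UMIs of Slc7a11 in all, and a thinned share of at most 0.877%, on a median of 4942 to 7347 UMIs per cell. The Mo/Mφ-like shares were 6.50% and 12.3% at 24 h, above that background, and 1.47% and 0.787% at 72 h, close to it.

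Gsr was even across neutrophil-like cells. Its levels there were 1400, 1362, 1511 and 1462 CPM, and 69.5% to 74.4% of thinned cells held a UMI (89.0% to 93.2% unthinned). Mo/Mφ-like cells held 264, 219, 55.9 and 147 CPM, and T, NK and innate lymphoid cells at most 67.1 CPM. In neutrophil-like cells its log2 ratios between genotypes and times lay between -0.05 and 0.11, with -0.45 for CCR2 KO 72 h against 24 h under TMM scaling, while in Mo/Mφ-like cells they ran from -2.24 to 1.39.

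Mt1 and Prdx1 had the opposite placing. Prdx1 stood at 1098, 1580, 761 and 1264 CPM in Mo/Mφ-like cells, at 568 to 728 CPM in dendritic cell-like cells, at 336 to 399 CPM in T, NK and innate lymphoid cells, and at 137, 173, 218 and 367 CPM in neutrophil-like cells. Mt1 stood at 366, 487, 305 and 459 CPM in Mo/Mφ-like cells, at 178 to 219 CPM in dendritic cell-like cells and at 27.7 to 46.7 CPM in lymphoid cells. For both genes Mo/Mφ-like cells came first and dendritic cell-like cells second in the 24 h libraries and in WT 72 h, with intervals apart between these 2 classes. In CCR2 KO 72 h this order held for Prdx1, while for Mt1 Siglecf-positive neutrophil-like cells held second place.

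Sod2, the mitochondrial superoxide dismutase, did not separate the 2 classes at 24 h. Mo/Mφ-like and neutrophil-like cells held 821 and 830 CPM in WT 24 h and 363 and 353 CPM in CCR2 KO 24 h, and the intervals of the ratios, -0.12 to 0.09 and -0.07 to 0.15 on the log2 scale, covered 0. At 72 h neutrophil-like cells held 237 and 227 CPM of Sod2 and Mo/Mφ-like cells 109 and 109 CPM. Dendritic cell-like cells and T, NK and innate lymphoid cells held 92.5 to 149 CPM of Sod2 in all libraries, a range that covered the 72 h Mo/Mφ-like values and lay below the other myeloid ones.

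The first comparison asked how Mo/Mφ-like cells differed when monocytes could not use CCR2. At 24 h, Slc7a11 was 2.53-fold higher in CCR2 KO than in WT Mo/Mφ-like cells (log2 1.34 [1.20, 1.47]) and Sod2 was 2.26-fold lower (log2 -1.18 [-1.26, -1.10]). These were 1 gene of 9 in each direction, against 2.7% of all genes higher and 1.32% lower (2.14% and 1.88% with TMM scaling). Of the other 7, Mt1, Prdx1, Gclm, Sqstm1, Srxn1 and Txnrd1 were 1.33-fold to 1.70-fold higher, with intervals above 0, and Gsr was 1.21-fold lower. The median log2 ratio of the 9 genes was 0.53, beside -0.07 over the 5855 genes tested.

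**Figure D2:**
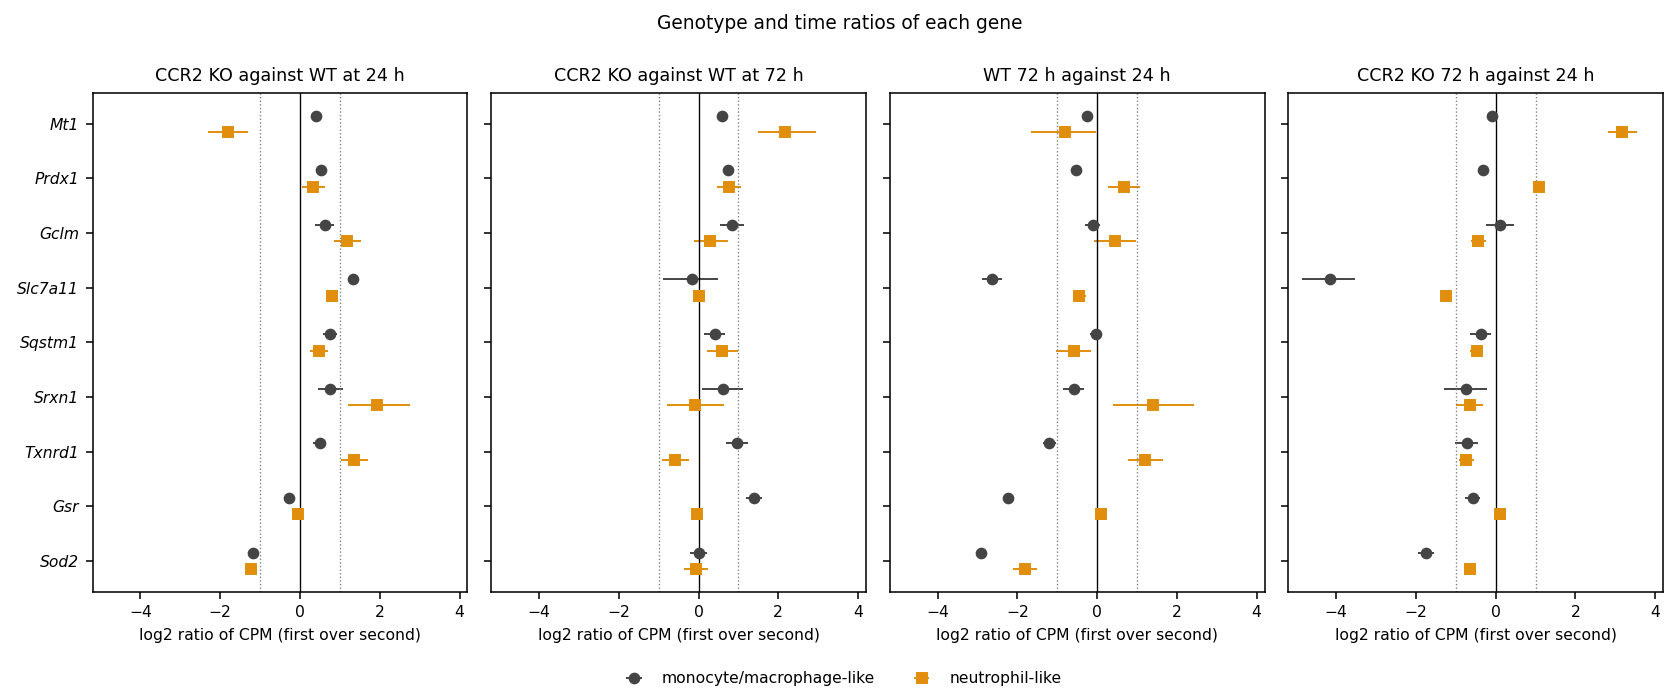
Log2 ratios of the 9 genes between CCR2 KO and WT at each time, and between 72 h and 24 h in each genotype, in Mo/Mφ-like and neutrophil-like cells, with 95% binomial intervals for counting error; dashed lines mark 2-fold. Sod2 lies below -1 in both classes in the 24 h genotype comparison and near 0 in both at 72 h.

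Neutrophil RNA in the Mo/Mφ-like class was measured beside the Slc7a11 result. All 10 neutrophil markers were detected there and summed to 931, 615, 516 and 539 CPM, which was 0.855%, 0.804%, 0.673% and 0.519% of their level in neutrophil-like cells. Slc7a11 stood at 5.37%, 7.80%, 1.17% and 1.04% of its neutrophil-like level, above the marker share in each library. The same markers set the classes, which holds their share down, while Slc7a11 is not a marker. The comparison therefore cannot show how much of the Slc7a11 came from neutrophil RNA. Without cells holding 2 or more markers of the other class, the 24 h log2 ratio of Slc7a11 was 1.46. Within CCR2 KO 24 h, Slc7a11 stood at 352 CPM in Arg1-gated, 213 CPM in Fabp5-gated and 160 CPM in Ly6c monocyte-gated cells. It stood at 1.46 CPM (1 UMI) in Cx3cr1-gated cells of the same library.

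At 72 h the picture in Mo/Mφ-like cells was a different one. Gsr was 2.62-fold higher in the CCR2 KO (147 against 55.9 CPM, log2 1.39 [1.19, 1.58]), and it alone passed of the 7 members at 20 CPM or more, against 5.35% of all genes; none of these was lower by 2-fold, against 2.54% (2.70% and 5.61% with TMM scaling). Txnrd1 came close, at 67.3 against 34.5 CPM (log2 0.96 [0.68, 1.24]), followed by Gclm at 54.8 against 30.5 CPM (log2 0.84 [0.53, 1.15]) and Prdx1 at 1264 against 761 CPM (log2 0.73 [0.67, 0.79]). Mt1 had a log2 ratio of 0.59 [0.48, 0.69], while Sod2, at 109 CPM in both, had a log2 ratio of 0.00 [-0.21, 0.20]. Slc7a11 and Srxn1 were under the level minimum in both libraries at 72 h. With cells thinned to 1000 UMIs the log2 ratio of Gclm turned to -0.47. Few cells carried much of the Gsr count, as 175 of the 305 UMIs in CCR2 KO 72 h came from 12 Ly6c monocyte-gated cells (780 CPM). In WT 72 h, 252 of 725 Gsr UMIs came from 34 such cells (550 CPM). The Gsr ratio without that gate was not computed.

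Other properties of the CCR2 KO 72 h Mo/Mφ-like cells moved with these values. Their median mitochondrial share was 5.91% of UMIs, against 3.53% to 4.28% in the other libraries. The 12 dissociation stress genes, immediate early and heat shock genes that handling can raise, summed to 2990 CPM in CCR2 KO 72 h and 6383 CPM in WT 72 h. Of the 12, 8 passed as lower in the KO, against 2.54% of all genes, with Hspa1b at log2 -3.02 [-3.56, -2.52]. How many of them passed with TMM scaling is not given here. With cells over 5% mitochondrial UMIs left out, the log2 ratio of Gsr was 2.35. The WT 72 h class had a feature of its own, since 429 of the 452 cells of a Leiden cluster led by the collagen genes Col3a1 and Col1a1 came from that library. The part of handling and of that cluster in the 72 h ratios was not tested.

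The comparison of times asked how the same class differed between the early and the later library of each genotype. In WT, Slc7a11 was 6.23-fold, Sod2 7.57-fold, Gsr 4.72-fold and Txnrd1 2.29-fold lower at 72 h than at 24 h, which made 4 of the 8 members at 20 CPM or more, against 6.22% of all genes. No member was higher by 2-fold, against 6.96%. Mt1, Gclm and Sqstm1 lay within 1.20-fold of their 24 h level. The median over the tested members was -0.86 and that over all 6204 genes -0.04. In WT Ly6c monocyte-gated cells Gsr was not lower, at 480 CPM at 24 h (362 cells) and 550 CPM at 72 h (34 cells). Those cells held 2521 of the 5066 Gsr UMIs of the class in WT 24 h. Gsr was lower at 72 h in Timp2-gated (179 to 65.0 CPM) and Cx3cr1-gated cells (124 to 22.2 CPM). Sod2 went from 647 to 122 CPM in Ly6c monocyte-gated cells. The part of gate shares in the time ratios was not tested.

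In the CCR2 KO, 2 of the 9 genes were lower at 72 h by at least 2-fold, Slc7a11 by 17.7-fold (178 to 10.1 CPM) and Sod2 by 3.34-fold (363 to 109 CPM), against 4.76% of all genes, and none was higher, against 10.6% (8.95% and 5.84% with TMM scaling). Gsr was 1.49-fold lower, at 147 against 219 CPM. The 2 genotypes reached the same 72 h level of Sod2 from different 24 h levels, whereas for Gsr they started at 264 and 219 CPM and ended at 55.9 and 147 CPM. These comparisons share libraries, so their ratios are not independent of one another.

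**Figure D3:**
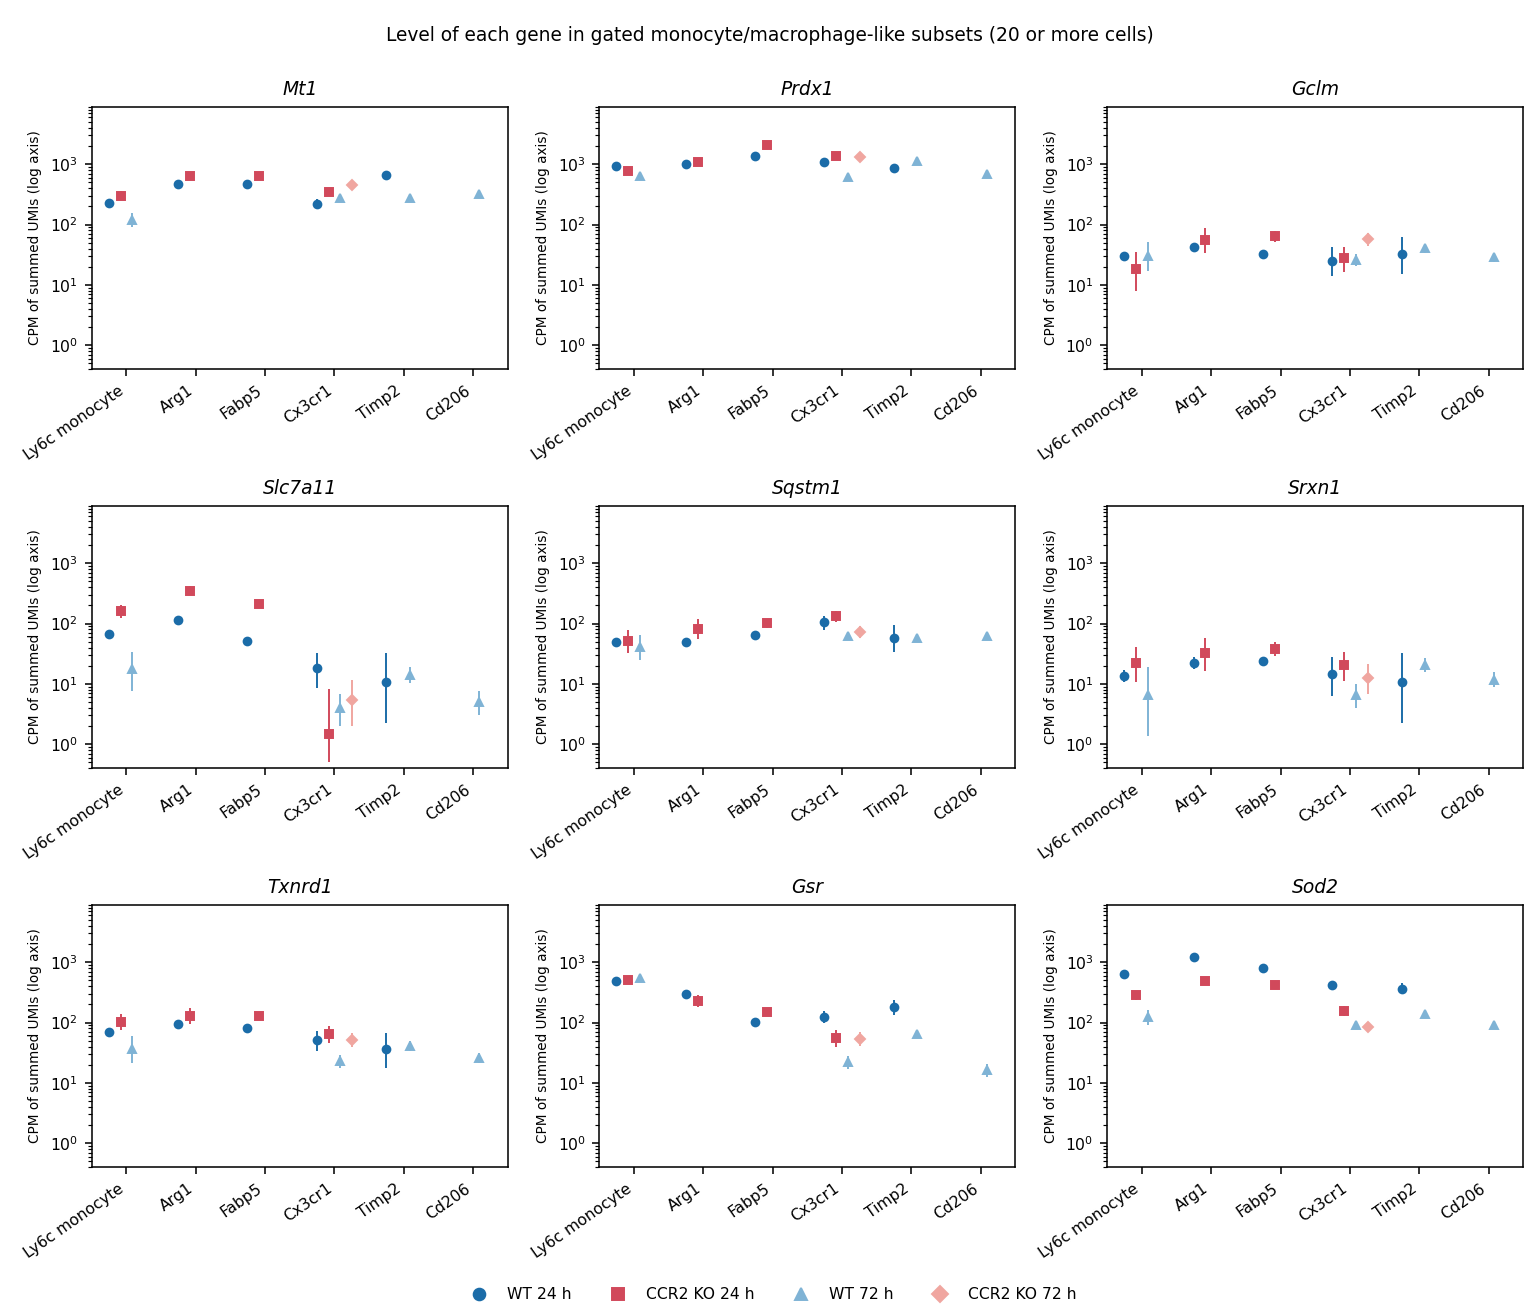
Level of the 9 genes (CPM of summed UMIs, log axis) in Mo/Mφ-like cells gated on subset genes, 1 point per library with its 95% Poisson interval, for gates with 20 or more cells. Gsr runs from 480 to 550 CPM in Ly6c monocyte-gated cells to 16.2 CPM in Cd206-gated cells, and Sod2 of CCR2 KO 24 h lies below that of WT 24 h in all 4 shared gates.

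The subset gates differed in their share of each library, so the 9 genes were also read within gates of at least 20 cells in both genotypes. Sod2 was lower in CCR2 KO at 24 h in each of the 4 gates, with log2 ratios of -1.20 in Ly6c monocyte-gated, -1.31 in Arg1-gated, -0.93 in Fabp5-gated and -1.46 in Cx3cr1-gated cells. Slc7a11 was higher in 3 gates, with log2 ratios of 1.25, 1.60 and 2.06 in Ly6c monocyte-gated, Arg1-gated and Fabp5-gated cells, and lower in Cx3cr1-gated cells, where 1 UMI in the KO gave 1.46 against 18.0 CPM (log2 -3.63 [-9.07, -0.82]). Both directions held within the 3 gates with the most WT cells. Prdx1 did not do so, with log2 ratios of -0.26 [-0.42, -0.10] in Ly6c monocyte-gated, 0.07 [-0.09, 0.23] in Arg1-gated and 0.62 [0.56, 0.68] in Fabp5-gated cells.

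Gsr marked the gates as well as the libraries. Ly6c monocyte-gated cells held 480 CPM in WT 24 h and 499 CPM in CCR2 KO 24 h, while Cx3cr1-gated cells held 124 and 55.3 CPM. In WT 24 h, Gsr was 3.33-fold lower in Fabp5-gated than in the other Mo/Mφ-like cells (102 against 340 CPM), and it alone of the 9 passed, against 2.36% of all genes lower; 0 of 9 were higher, against 1.31%. Within Cx3cr1-gated cells at 72 h, 59 of them in the KO and 215 in WT, the KO was higher in Gsr (log2 1.26 [0.73, 1.79]), Txnrd1 (1.17 [0.64, 1.70]), Gclm (1.12 [0.62, 1.62]) and Prdx1 (1.08 [0.98, 1.18]). Sod2 in the same cells had a log2 ratio of -0.08 [-0.44, 0.26]. Neither the share of all genes past 2-fold nor TMM scaling was computed within this gate. In the whole class at 72 h, TMM scaling gave log2 1.11 for Gsr, 0.69 for Txnrd1, 0.57 for Gclm and 0.46 for Prdx1. A general offset of the CCR2 KO 72 h library in these gate ratios was not tested.

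In neutrophil-like cells at 24 h, 3 of the 9 genes passed as higher in the CCR2 KO, against 4.85% of all genes, and 2 as lower, against 7.52%. With TMM scaling 4 passed as higher, Slc7a11 being added (log2 1.01), and 2 as lower, against 8.42% and 5.87%. Srxn1 stood at 69.1 against 18.1 CPM (3.82-fold, log2 1.94 [1.21, 2.76]), Txnrd1 at 234 against 91.5 CPM (2.56-fold, log2 1.36 [1.03, 1.70]) and Gclm at 201 against 88.1 CPM (2.28-fold, log2 1.19 [0.85, 1.54]). Slc7a11 was 1.74-fold and Sqstm1 1.39-fold higher, and Gsr was level at 1362 against 1400 CPM. Sod2 was 2.35-fold lower, at 353 against 830 CPM (log2 -1.23 [-1.36, -1.10]), close to its ratio in Mo/Mφ-like cells of the same libraries. The WT value of Srxn1 rested on 16 UMIs and was no higher than the 29.8 CPM (4 UMIs) of T, NK and innate lymphoid cells in that library, whereas in CCR2 KO 24 h 69.1 CPM stood against 19.9 CPM.

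Mt1 was the other gene that passed as lower, at 19.5 against 67.8 CPM, and this value rested on few cells. In WT 24 h, 60 Mt1 UMIs were counted and the top 1% of cells held 70.0% of them; for Prdx1 the top 1% held 54.5%. Without the 32 WT cells holding 2 or more macrophage markers, Mt1 stood at 17.4 CPM in WT and 18.6 CPM in CCR2 KO, and Prdx1 at 49.2 and 173 CPM. The log2 ratio of Mt1 then was 0.10 and that of Prdx1 1.82. In CCR2 KO 24 h, Mt1 stood at 4.01% of its Mo/Mφ-like level, beside 4.10% for the summed macrophage markers. Those markers also set the classes, so their share cannot show how much of the Mt1 came from macrophage RNA.

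At 72 h, Mt1 passed in the opposite direction in neutrophil-like cells. It stood at 175 CPM in CCR2 KO and 38.8 CPM in WT (4.52-fold, log2 2.18, on 384 and 18 UMIs), and was the 1 gene of 9 to pass as higher, against 3.24% of all genes, with 0 lower, against 1.69%. Mt1 in the CCR2 KO stood at 38.2% of its Mo/Mφ-like level, beside 3.44% for the summed macrophage markers, which also set the classes. Without mixed cells Mt1 stood at 190 CPM in CCR2 KO and 41.2 CPM in WT. Prdx1 was 1.69-fold higher in the KO, Txnrd1 lower by log2 -0.59 [-0.92, -0.24], and Slc7a11, Gsr and Sod2 were within 1.05-fold. The top 1% of CCR2 KO 72 h cells held 39.8% of the Mt1 UMIs, and 8.41% of thinned cells held any (16.6% unthinned), against 1.25% (8.75% unthinned) of T, NK and innate lymphoid cells. In CCR2 KO 24 h and WT 72 h, Mt1 stood at 19.5 [15.5, 24.2] and 38.8 [23.0, 61.3] CPM in neutrophil-like cells. T cell-like cells of these libraries held 4.18 and 4.01 CPM (2 and 1 UMIs) and innate lymphoid cell-like cells 75.3 and 103 CPM (23 and 26 UMIs). In WT 72 h Mt1 stood at 12.7% of its Mo/Mφ-like level, beside 2.20% for the summed macrophage markers.

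Between 24 h and 72 h, neutrophil-like cells of WT passed as higher in Srxn1 (18.1 to 47.4 CPM) and Txnrd1 (91.5 to 211 CPM), 2 of 9 against 19.8% of all genes, and as lower in Sod2 (830 to 237 CPM), 1 of 9 against 6.2%. Without cluster 12 the log2 ratio of Srxn1 turned to -0.51, from 1.39. The cluster held 25% of the 16 Srxn1 UMIs of WT 24 h and 77.3% of the 22 of WT 72 h. The ratio without it rested on few UMIs, and its sign is not read as a result. In the CCR2 KO, Mt1 (19.5 to 175 CPM) and Prdx1 (173 to 367 CPM) passed as higher, 2 of 9 against 21.7%, and Slc7a11 (2288 to 968 CPM) as lower, 1 of 9 against 3.88%. Slc7a11 no longer passed without Siglecf-positive cells (log2 -0.88). The median of all tested genes was itself 0.40 in WT and 0.38 in the KO on the log2 scale, and with TMM scaling it was 0.01 and -0.21. The shares of higher members lay near the background. With TMM scaling, 1 member passed as higher in WT (Srxn1) and 2 as lower (Sod2 and Mt1), against 9.60% and 10.8%, and Txnrd1 no longer passed (log2 0.84). Mt1 of WT stood at log2 -1.18 with TMM scaling and at -0.80 without it. Without mixed cells its ratio, not TMM scaled, was 1.25, on 12 UMIs at 24 h and 18 at 72 h. In the KO, TMM scaling left 1 member as higher (Mt1), Prdx1 no longer passing (log2 0.54), and 5 as lower, against 7.48% and 12.4%. Those 5 were Slc7a11 (log2 -1.79), Txnrd1 (-1.29), Srxn1 (-1.19), Sod2 (-1.19) and Sqstm1 (-1.02).

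Siglecf-positive cells made up 7.69%, 14.3%, 44.0% and 49.5% of neutrophil-like cells in the 4 libraries. Siglecf encodes a surface lectin of eosinophils and of some tissue neutrophils, and the 4 eosinophil markers measured summed to at most 6.5 CPM in neutrophil-like cells. Gclm was lower in Siglecf-positive than in Siglecf-negative cells of every library, with log2 ratios from -1.13 in CCR2 KO 72 h to -2.35 in WT 24 h, where 1 UMI was counted and the interval [-7.67, 0.17] covered 0. Slc7a11 was lower at 72 h, by log2 -1.44 in WT and -1.16 in CCR2 KO. Mt1 ran the other way in CCR2 KO 72 h, at 274 against 92.4 CPM (log2 1.57 [1.24, 1.90]).

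**Figure D4:**
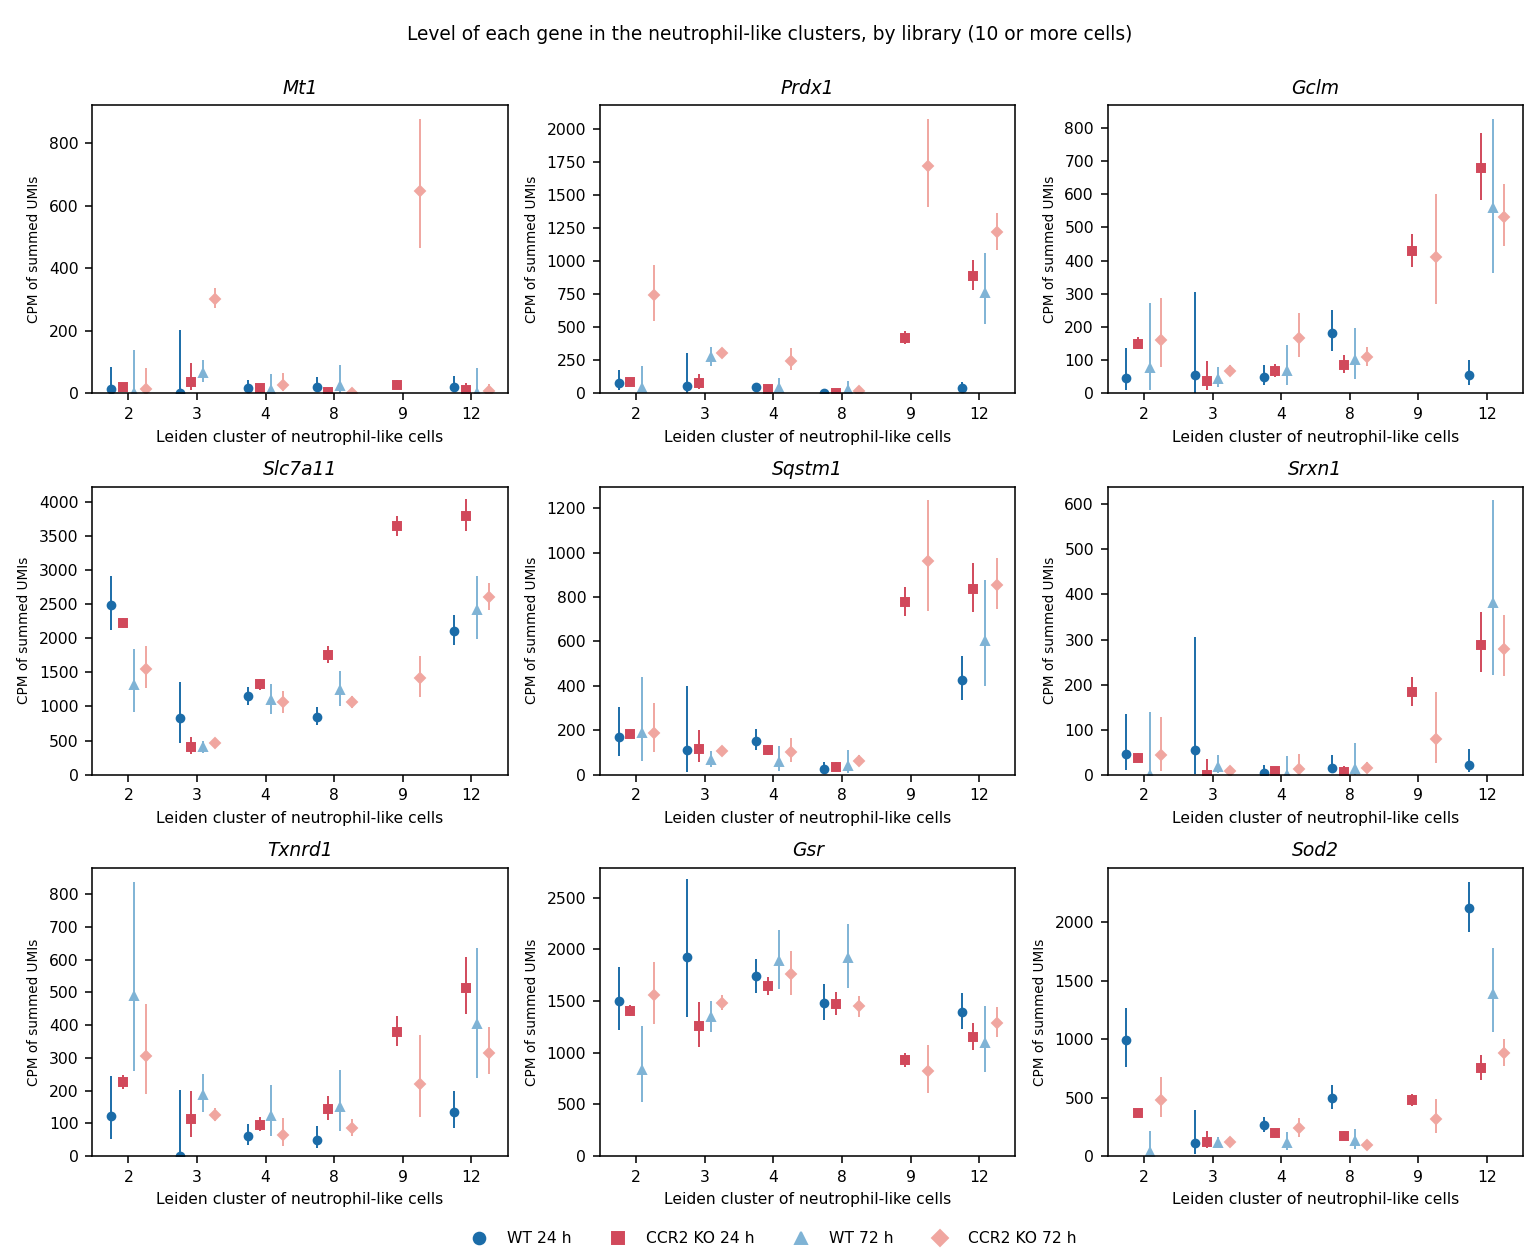
Level of the 9 genes (CPM of summed UMIs) in each neutrophil-like Leiden cluster, 1 point per library with its 95% Poisson interval, for clusters with 10 or more cells in that library. Clusters 12 and 9 lie above the others in Gclm, Srxn1 and Sqstm1 in the CCR2 KO 24 h library, whereas Gsr is not raised in them.

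Leiden clusters, built with the 9 genes left out, were then read within the neutrophil-like class, and clusters 12 and 9 were singled out after their values of Gclm, Srxn1 and Txnrd1 were seen. Cluster 12 (189 cells) was led by Asprv1, Mrgpra2b, Chil1 and Acod1, and cluster 9 (251 cells, 220 of them CCR2 KO 24 h) by Rab15, Mreg, Pdcd1lg2 and Hcar2. Both together held 22.4% of the neutrophil-like UMIs of CCR2 KO 24 h. Their shares of a gene's UMIs were 71.1% for Srxn1, 70.9% for Prdx1, 60.7% for Sqstm1, 54.9% for Gclm and 41.0% for Txnrd1. Shares were 36.6% for Slc7a11, 35.7% for Sod2, 24.7% for Mt1 and 16.5% for Gsr. High shares of Gclm, Srxn1 and Txnrd1 follow from how the clusters were picked and are no separate result. The same limit holds for CCR2 KO 72 h, where both clusters held 13.7% of the UMIs and 76.3% of those of Srxn1.

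Within cluster 12 the WT 24 h library stood apart from the other 3. Gclm stood there at 55.6, 678, 559 and 531 CPM, Srxn1 at 22.2, 289, 380 and 280 CPM, and Prdx1 at 44.4, 889, 760 and 1219 CPM. The WT 24 h value was the lowest for each of these genes, with its interval apart from the others, on 61 cells and 4 to 10 UMIs. Sod2 was the reverse, at 2122, 752, 1386 and 879 CPM, with WT 24 h highest. Cluster 12 made up 19.6%, 4.93%, 8.79% and 8.04% of neutrophil-like cells, and without it the 24 h log2 ratio between CCR2 KO and WT was 0.80 for Gclm and -0.62 for Sod2, both inside the 2-fold limit. Gclm was among the genes by which the cluster was singled out, so its ratio without cluster 12 is no separate check.

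Detection in single cells followed the same lines in neutrophil-like cells of CCR2 KO 24 h, but less so elsewhere. In WT 24 h Mo/Mφ-like cells Gclm was found in 5% of the 20 thinned cells with Srxn1 and 4.43% of the 1241 without. There Txnrd1 was found in 10% and 8.46%, and Sqstm1 in 20% and 7.01%. Among thinned CCR2 KO 24 h neutrophil-like cells, Gclm was found in 39.4% of the 71 cells with Srxn1 and in 9.82% of the 1232 without it. Txnrd1 was found in 40.8% and 14.9%, and Sqstm1 in 45.1% and 16.5%. Gsr showed no such gap, at 73.2% and 72.2%. Thinning equalised depth but not RNA content per cell, whose part in these shares was not tested. At least 3 of the 9 genes were detected in 28.7%, 35.1%, 20.3% and 25.4% of neutrophil-like cells, in 24.6%, 25.5% and 4.19% of Mo/Mφ-like cells of the first 3 libraries, in 11.02% of those of CCR2 KO 72 h, and in at most 5.56% of dendritic cell-like cells and 3.51% of T, NK and innate lymphoid cells.

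Across 25 units of a class in a library with at least 20 cells, the members fell loosely into a large group and a pair. This is given as a description, since the units share libraries and differ in depth. Slc7a11 and Gsr had a Pearson r of 0.89, Slc7a11 and Sqstm1 0.78, Gclm and Sqstm1 0.77, and Srxn1 and Txnrd1 0.73. Mt1 and Prdx1 had an r of 0.60 with each other, and Prdx1 and Sqstm1 one of -0.49. The large group also held weaker pairs, with an r of 0.34 for Slc7a11 and Srxn1 and 0.44 for Srxn1 and Gsr. The closest gene to Slc7a11 was Hcar2 (0.96) and to Gsr Msrb1 (0.96), both neutrophil markers used for the classes. No r of other gene pairs was taken as background. Of 9727 genes, those most like the mean pattern of the 9 were Cstb (0.91), Pgd (0.89), Bri3 (0.88), Ftl1 (0.88) and Vmp1 (0.88). Cstb encodes a cathepsin inhibitor, Pgd an enzyme of the pentose phosphate pathway and Ftl1 the ferritin light chain.

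The wider redox lists placed these values among related genes. In Mo/Mφ-like cells at 72 h, 3 of the 8 tested genes of glutathione synthesis and reduction passed as higher in the CCR2 KO, Gsr, Gpx3 (93.7 against 37.3 CPM) and Glrx (151 against 75.6 CPM), against 5.35% of all genes, with a list median of 0.73 beside 0.12 over all genes. With TMM scaling 2 of 7 passed, against 2.70%, and Glrx (log2 0.73) did not. Hmox1, heme oxygenase, stood at 606 against 170 CPM (log2 1.83 [1.73, 1.93]), Mt2, the second metallothionein, at 34.6 against 6.94 CPM (2.32 [1.85, 2.78]) and Sod1, cytosolic superoxide dismutase, at 121 against 55.0 CPM (1.13 [0.92, 1.34], and 0.86 with TMM scaling). None of the 11 tested thioredoxin and peroxiredoxin genes passed.

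In neutrophil-like cells at 24 h, 3 of the 9 tested glutathione genes were higher in the CCR2 KO, against 4.85% of all genes (5 of 10 against 8.42% with TMM scaling): Ggct (67.9 against 27.1 CPM), Gclm, and Gclc, the catalytic partner of Gclm (30.1 against 13.6 CPM). Of the 5 tested Nrf2 regulators 2 were higher, against the same 4.85%, Maff (80.7 against 29.4 CPM) and Mafk (49.6 against 18.1 CPM), small Maf proteins that pair with Nrf2. The glutathione transferase Gstm1 stood at 45.5 against 9.03 CPM (log2 2.33 [1.32, 3.57]). Of the 7 genes of the NADPH oxidase list 2 were lower, against 7.52%, Cybb (127 against 297 CPM) and Nos2 (4.82 against 42.9 CPM). Nos2 encodes inducible nitric oxide synthase and not a part of that oxidase, so Cybb was the only oxidase gene to pass as lower. The WT values of Gclc, Gstm1 and Mafk rested on 12, 8 and 16 UMIs.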

How the data were processed

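Each of the 4 samples was a 10x Genomics library of CD45+ cells, and groups came from the labels, 1 library per group. The authors deposited 1 table of raw counts (UMIs per gene and cell) per library, already filtered for cells; the submitters' processing notes name Cell Ranger 3.0.2 and Seurat. No cell had fewer than 250 genes or over 9.99% mitochondrial UMIs. No column of another sample was used, and depth per library is given above.

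Cells were classed by fixed marker lists: each summed score was divided by its 99.5th percentile, and a cell took its highest class if that scaled score was at least 0.25 with 2 or more markers detected; subset gates needed a z-score of 0.75. No deposited annotation was used, so class names are rebuilt here. UMIs were summed per class and library and scaled to CPM. Leiden clusters (scanpy 1.11.5, leidenalg 0.10.2) used 2000 variable genes, 30 components, 20 neighbours and resolution 1, giving 20 clusters. For shares of cells with a UMI, cells were thinned to 1000 UMIs and shallower ones left out (2 to 25 cells per library in the Mo/Mφ-like and neutrophil-like classes). Scrublet marked 11 of 5811 cells as doublets, too few to count as working, so cells with 2 or more markers of the other class were left out as an alternative. Intervals were exact (scipy 1.17.1). TMM factors came from edgeR 4.0.16 in R 4.3.3, for an alternative scaling only. Ratios were tested on simulated data with known folds.

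The 9 genes, the marker lists and the 11 gene lists were chosen with earlier results of these data known. Named genes were the 9, up to 3 genes past 2-fold per list and comparison, the 5 genes most like the mean pattern, and the closest genes to Slc7a11 and to Gsr. The 9 genes lie on GRCm38 (GENCODE vM21) at Mt1 chr8:94179082-94180327, Prdx1 chr4:116685544-116700822, Gclm chr3:122245557-122270732, Slc7a11 chr3:49892526-50443614, Sqstm1 chr11:50199366-50210827, Srxn1 chr2:152105516-152111376, Txnrd1 chr10:82833951-82897712, Gsr chr8:33652523-33698163 and Sod2 chr17:13006846-13040063. Alternatives were Leiden classes, TMM, thinned cells, a pseudocount of 5 CPM, no level minimum, at most 5% mitochondrial UMIs, no Scrublet calls, 3 markers, and no top 1% of cells, with 4 more added later.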

Additional observations from a re-analysis of the deposited data

Results flagged for a closer look

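In neutrophil-like cells 3 of the 9 genes moved in opposite directions in 2 groups under the same contrast, each by at least 1.5-fold with counting intervals off 0. With 1 library per group the difference between the groups was not tested.

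Between CCR2 KO and WT, the log2 ratio of Mt1 was -1.80 at 24 h and 2.18 at 72 h, and that of Txnrd1 was 1.36 at 24 h and -0.59 at 72 h. Between 72 h and 24 h, the log2 ratio of Mt1 was -0.80 in WT and 3.17 in CCR2 KO, that of Srxn1 was 1.39 in WT and -0.64 in CCR2 KO, and that of Txnrd1 was 1.21 in WT and -0.74 in CCR2 KO. Each of these 5 pairs uses the WT 24 h library, in which Mt1 was concentrated in few cells, as given in the report. For Mt1 the 24 h ratio between genotypes became 0.0056 with Leiden classes and 0.10 without mixed cells, so the opposite sign at 24 h was lost. The WT ratio of Mt1 between times became 1.25 without mixed cells, the same sign as in CCR2 KO, on 12 UMIs at 24 h and 18 at 72 h. For Srxn1 the WT ratio between times became -0.51 without cluster 12, which held 77.3% of its 22 UMIs in WT 72 h. That ratio rested on few UMIs, and its sign is not read as a result. The cluster was also singled out with its Srxn1 values in view. The pairs also share libraries with each other.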

How the results depend on the processing

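No paired analysis was possible because each group was 1 library. Over 13 alternative settings, 4 of them chosen after seeing the data (no cells with 2 or more markers of the other class, no Siglecf-positive cells, no cluster 9, no cluster 12), 1100 of 1386 recomputed log2 ratios stayed inside the counting interval of the reported value, and 142 of 154 counts of passing members stayed within 1.5 times. For CCR2 KO against WT, the count in Mo/Mφ-like cells at 72 h was 2 with thinned cells and 2 at 5% mitochondrial UMIs or less (1 as reported), that in neutrophil-like cells at 24 h was 3 without cluster 12 (5 as reported), and that at 72 h was 2 with thinned cells and 2 without Siglecf-positive cells (1 as reported). For 72 h against 24 h, the count in CCR2 KO Mo/Mφ-like cells was 4 at 5% mitochondrial UMIs or less (2 as reported), that in CCR2 KO neutrophil-like cells was 6 with TMM and 6 without cluster 12 (3 as reported), and that in WT neutrophil-like cells was 5 with Leiden classes, 5 with thinned cells and 5 without mixed cells (3 as reported). With thinned cells, 1 member passed as higher in Mo/Mφ-like than in neutrophil-like cells of CCR2 KO 72 h (2 as reported).

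Mt1, CCR2 KO against WT at 24 h in neutrophil-like cells, changed sign to 0.0056 with Leiden classes and 0.10 without mixed cells. Without cluster 12, Srxn1 changed sign to -0.51 between WT 72 h and 24 h neutrophil-like cells, and to 0.50 and 0.11 between Mo/Mφ-like and neutrophil-like cells of CCR2 KO 72 h and WT 72 h. The cluster was singled out with its Srxn1 values in view, and few Srxn1 UMIs of WT 72 h lay outside it. These sign changes are therefore no separate check. TMM moved the all-gene median log2 ratio from 0.38 to -0.21 (CCR2 KO) and from 0.40 to 0.01 (WT) for 72 h against 24 h in neutrophil-like cells, from 0.01 to 0.22 for CCR2 KO against WT at 24 h in the same class, and from 0.12 to -0.18 for CCR2 KO against WT at 72 h in Mo/Mφ-like cells. The cause was not tested in these cases. The smallest counts of the 9 genes in the 2 myeloid classes were 16 UMIs of Srxn1 in WT 24 h and 18 of Mt1 in WT 72 h neutrophil-like cells, and 21 of Slc7a11 in CCR2 KO 72 h Mo/Mφ-like cells.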

Other observations

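Related redox genes outside the set of 9 also differed between the 24 h and 72 h libraries in Mo/Mφ-like cells, in both directions. Gpx3, a secreted glutathione peroxidase, stood at 37.3 CPM at 72 h against 8.39 CPM at 24 h in WT and at 93.7 against 7.88 CPM in CCR2 KO. Catalase (Cat) stood at 66.2 against 29.6 CPM in WT and at 102 against 29.0 CPM in CCR2 KO. Prdx6, a peroxiredoxin, was lower at 72 h, with 99.0 against 297 CPM in WT and 111 against 298 CPM in CCR2 KO. Of the 3 tested superoxide and catalase genes 1 was higher and 1 lower by 2-fold in WT, against 6.96% and 6.22% of all genes, and 2 were higher (Sod1 and Cat) and 1 lower (Sod2) in CCR2 KO, against 10.6% and 4.76%. Ferritin chains passed in CCR2 KO, where Fth1 stood at 8374 against 17793 CPM and Ftl1 at 5793 against 12696 CPM. The 2 genotypes were not compared with each other in these time differences, and no test of them was made.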
